A study of Mus musculus with 24 samples.

Results

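Restriction factors are host proteins that block single steps of virus infection. The 8 genes examined here were named by symbol as Ifitm1, Ifitm2, Ifitm3, Samhd1, Apobec3, Zc3hav1, Adar and Bst2. They were chosen with earlier results of these data known, so their counts below do not test a set fixed beforehand. Their probes were found through the RefSeq accession that the scanner files give for each probe. Of the 8 genes, 7 were measured, by 12 probes, out of 22911 named genes and 56605 probes on the array. No probe of Ifitm2 was matched, and it was not analysed here. The cells were ID8, a mouse ovarian cancer line derived from surface epithelium, and each sample was total RNA from a culture treated for 3 h. The groups were 10, 100 and 1000 IU/ml recombinant murine interferon (IFN) epsilon (3 samples each), IFN beta at 10 (2 samples), 100 (2 samples) and 1000 IU/ml (3 samples), and untreated cells that received the PBS vehicle (3 samples, each on 2 arrays). Replicates 1, 2 and 3 were made on separate dates and are called dates 1, 2 and 3 here. The 2 arrays of IFN beta at 10 and 100 IU/ml from date 3, which the labels mark as excluded, were left out, so 22 of 24 arrays were used.

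Both interferons signal through the type I interferon receptor and the JAK-STAT pathway to the factor complex ISGF3, which binds the interferon-stimulated response element (ISRE) near many target genes. IFN beta is made on infection by many cells, whereas IFN epsilon is made constantly by epithelia of the uterus, oviduct and other female reproductive organs. The products of the 8 genes act along the path of a virus through a cell. IFITM proteins hinder the fusion of virus and host membranes, SAMHD1 removes the nucleotides needed for reverse transcription, APOBEC3 attacks new retroviral DNA, ZAP (the product of Zc3hav1) sends viral RNA to decay, ADAR1 edits double-stranded RNA, and tetherin (the product of Bst2) holds budding particles at the cell surface.

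The 75th percentile of probe intensity was 643.5 to 1221 across the 22 arrays used, and 47.9% to 57.1% of probes were well above background. All 10 markers of ovarian surface epithelium and mesothelium examined, among them Krt8, Wt1 and Msln, were well above background on all 6 untreated arrays. Of 8 leukocyte markers 4 were too, but Ptprc, Adgre1 and Lyz2 were well above background on 0 of them. Of 4 endothelial markers, Kdr was well above background on all 6, Pecam1 on 5, and Cdh5 and Tek on 0. Levels below are log2 intensities relative to the array's 75th percentile, so that 0 stands for a probe at that percentile. They compare samples for 1 gene and do not compare genes. Differences are log2 fold changes ± SE from limma, with p adjusted over 14428 genes, and a gene was called at an adjusted p under 0.05. All comparisons with untreated cells share the same 3 untreated samples.

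At 1000 IU/ml IFN epsilon, 6 of the 7 measured genes rose. Zc3hav1 rose 4.38-fold, Bst2 3.93-fold, Ifitm3 3.61-fold, Adar 2.64-fold, Samhd1 2.59-fold and Apobec3 2.02-fold over untreated cells. The same dose of IFN beta raised 5 of the 7, with fold changes of 3.77 for Zc3hav1, 3.43 for Bst2, 3.35 for Ifitm3, 2.37 for Adar and 1.88 for Apobec3, while Samhd1 (2.28-fold) missed the threshold. IFN epsilon at 100 IU/ml raised Bst2, Ifitm3, Zc3hav1 and Adar, and no measured member fell in any of these comparisons. Ifitm1 was called in none of them. Among all genes tested, 2.24% were called higher at 1000 IU/ml IFN epsilon, 1.58% at 1000 IU/ml IFN beta and 1.05% at 100 IU/ml IFN epsilon. In either direction 2.31% of all genes were called at 1000 IU/ml IFN epsilon and 1.59% at 1000 IU/ml IFN beta, where 0.0139% fell. The median log2 difference of the 7 genes was 1.40 at 1000 IU/ml IFN epsilon, 1.24 at 1000 IU/ml IFN beta and 0.98 at 100 IU/ml IFN epsilon, beside -0.05, -0.04 and -0.06 for all genes tested. In bulk RNA, a larger share of responding cells and more RNA per responding cell cannot be told apart.

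**Figure D1:**
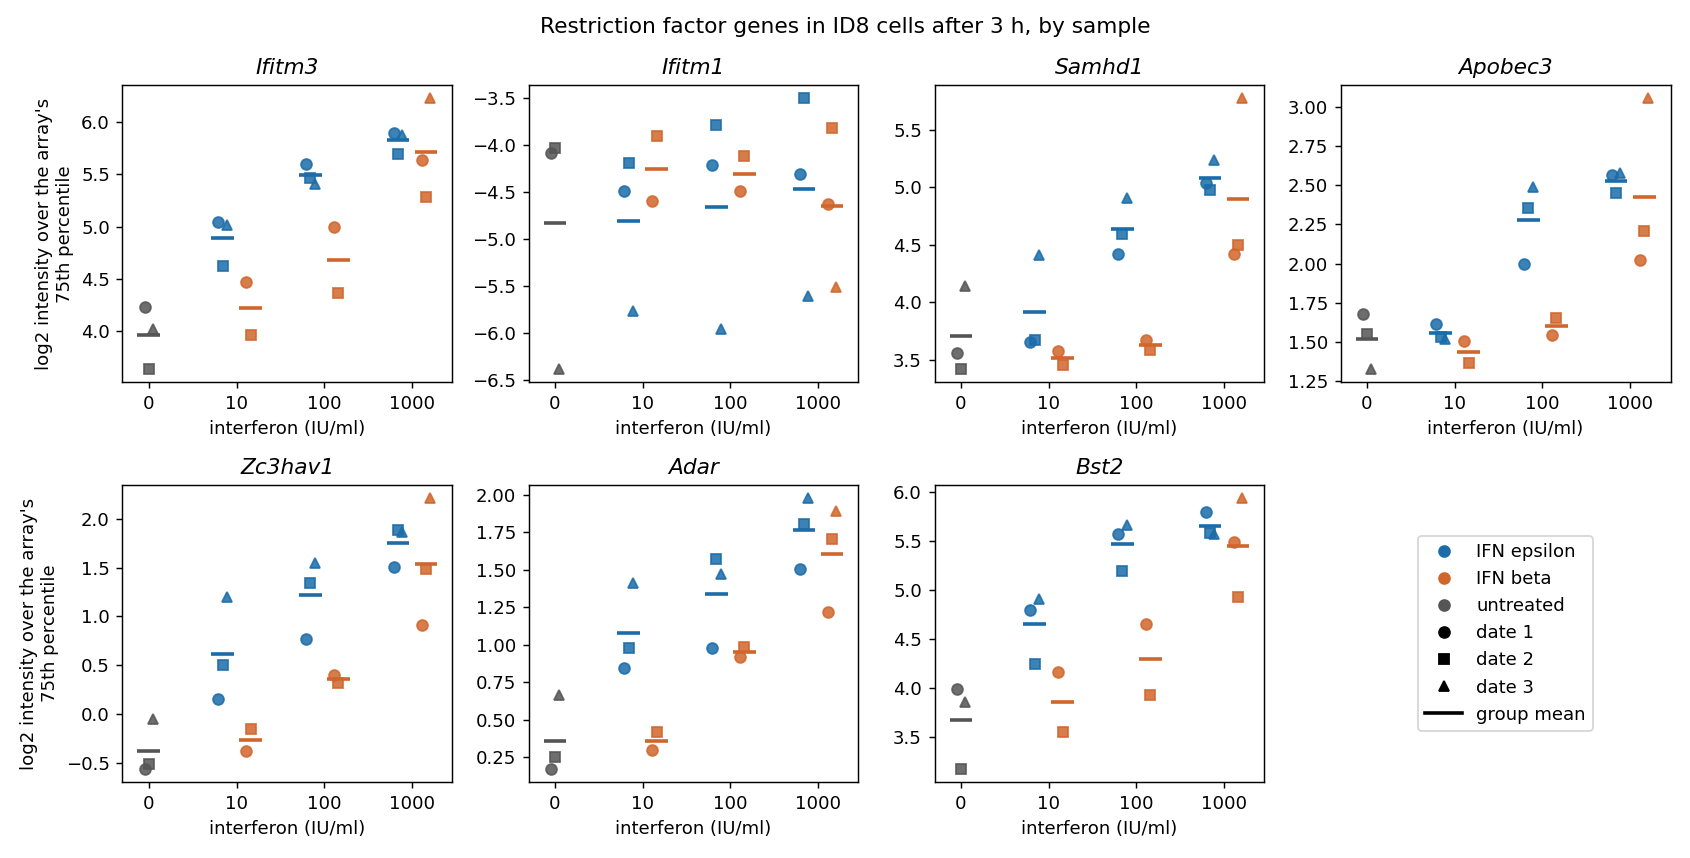
Level of each measured gene (log2 intensity over the array's 75th percentile, vertical axis) by interferon dose in IU/ml, with untreated cells at 0. Each point is 1 sample, the symbol gives the date and the bar is the group mean. Except for Ifitm1, all samples at 1000 IU/ml of either interferon lie above all untreated samples. The share of all genes separated in this way is not given.

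At the lower doses the counts depended on whether the date was used as a block. Without a block, limma called 0 of the 7 genes at 10 IU/ml IFN epsilon, where 0.201% of all genes were called higher. Of the 7, however, 4 were higher at an unadjusted p under 0.05, as were 0.859% of all genes. With the date as a block, Adar, Bst2, Ifitm3 and Zc3hav1 were called at this dose (0.499% of all genes). At 100 IU/ml IFN epsilon the block added Samhd1 to the 4 genes already called (1.48% of all genes), and at 1000 IU/ml IFN beta it added Samhd1 to the 5 (2.79%). At 1000 IU/ml IFN epsilon 6 were called with the block as without it (4.53%). IFN beta at 100 IU/ml gave 0 called members without the block (0.111% of all genes). There 2 members were higher at an unadjusted p under 0.05, as were 0.749% of all genes. With the block Adar was called at this dose (0.291%). At 10 IU/ml IFN beta 0 members were called in either fit, 0 had an unadjusted p under 0.05 in the fit without the block, and 0% of all genes were called higher.

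These counts also moved with which arrays shared the estimate of the spread. With the 2 excluded arrays included, limma called 0 of the 7 genes in every comparison, and of all genes it called 0.492% in either direction at 1000 IU/ml IFN epsilon and 0% in the other comparisons with untreated cells, while the fold changes of IFN epsilon against untreated cells are made from the same samples in both fits. Fitted on the compared groups alone, IFN beta at 1000 IU/ml gave 0 called members (0.381% of all genes in either direction) and IFN epsilon at 100 IU/ml gave 2 (0.783%).

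**Figure D2:**
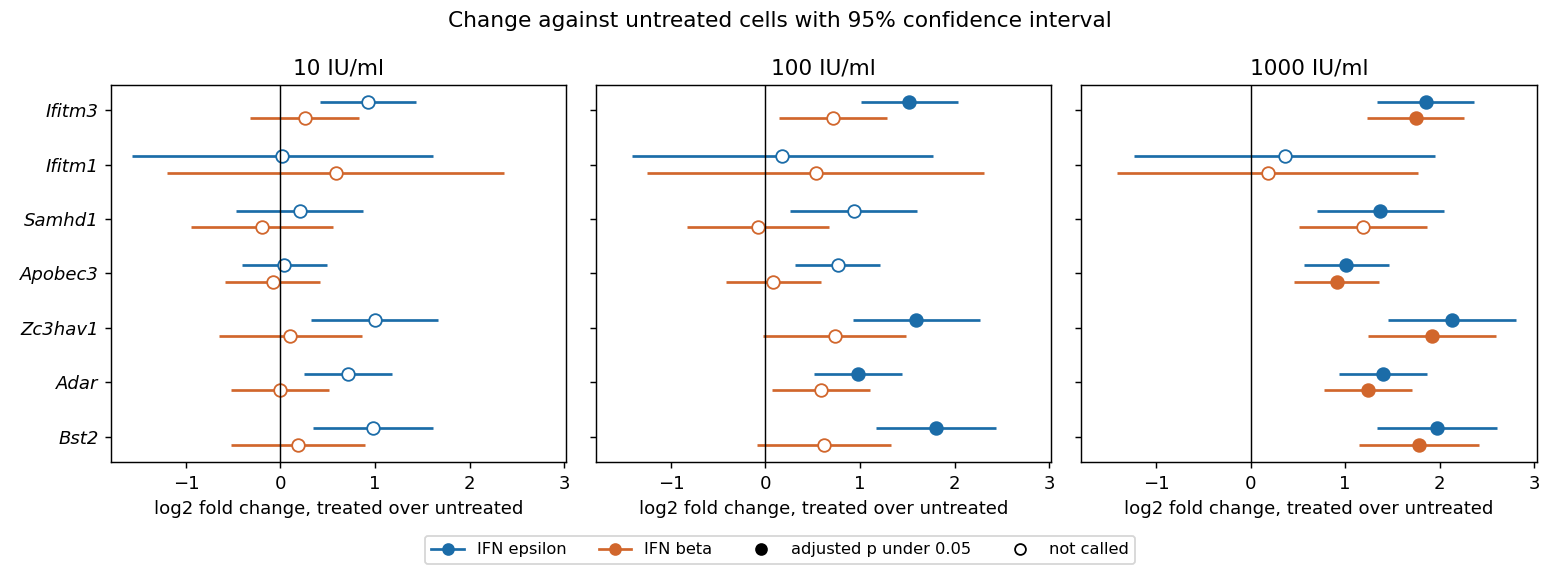
Log2 fold change over untreated cells for each gene at 10, 100 and 1000 IU/ml, with the 95% confidence interval from limma without a block. Filled points are called at an adjusted p under 0.05, which holds for 0, 4 and 6 genes with IFN epsilon and for 0, 0 and 5 genes with IFN beta.

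Among the entry inhibitors, Ifitm3, which restricts viruses that enter through endosomes, lies on chromosome 7 (141009590 to 141010744, GRCm38.p6). Its levels on dates 1, 2 and 3 were 4.23, 3.64 and 4.03 in untreated cells, 5.04, 4.63 and 5.01 with 10 IU/ml IFN epsilon, 5.60, 5.46 and 5.40 with 100 IU/ml, and 5.89, 5.69 and 5.88 with 1000 IU/ml. With IFN beta they were 4.48 and 3.97 at 10 IU/ml, 4.99 and 4.37 at 100 IU/ml, and 5.63, 5.29 and 6.22 at 1000 IU/ml. Every IFN epsilon sample lay above every untreated sample, and date 2 had the lowest value of each group except 100 IU/ml IFN epsilon. Against untreated cells Ifitm3 rose by 1.85 ± 0.24 at 1000 IU/ml IFN epsilon (adjusted p = 0.000256), by 1.52 ± 0.24 at 100 IU/ml IFN epsilon (adjusted p = 0.00268) and by 1.74 ± 0.24 at 1000 IU/ml IFN beta (adjusted p = 0.000586). The difference at 10 IU/ml IFN epsilon was 0.93 ± 0.24 (adjusted p = 0.404), which the block brought to an adjusted p of 0.0172 with an SE of 0.16. Within dates, this difference was 0.81 to 0.98.

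Ifitm1, a relative of Ifitm3 found mainly at the cell surface, lies on the same chromosome (140967429 to 140969827). Its levels were -4.08, -4.03 and -6.38 in untreated cells, -4.49, -4.19 and -5.76 with 10 IU/ml IFN epsilon, -4.21, -3.79 and -5.95 with 100 IU/ml, and -4.31, -3.50 and -5.60 with 1000 IU/ml. With IFN beta they were -4.60 and -3.90 at 10 IU/ml, -4.49 and -4.11 at 100 IU/ml, and -4.62, -3.81 and -5.51 at 1000 IU/ml. The treated and untreated ranges overlapped in every group, and date 3 was the lowest in every group that had it. The probe was well above background on 16 of 22 arrays, and on 2 of 3 arrays of 1000 IU/ml IFN epsilon against 4 of 6 untreated arrays. The difference of 0.36 ± 0.74 at 1000 IU/ml IFN epsilon had a 95% interval of -1.23 to 1.95 without a block. With the date as a block the SE was 0.20 and the interval -0.08 to 0.80 (adjusted p = 0.316). This interval describes the intensity of a probe that was not well above background on every array. How far it bounds the change in RNA was not tested. Within dates 1, 2 and 3 the difference from untreated cells was -0.22, 0.53 and 0.78 at 1000 IU/ml IFN epsilon. At 1000 IU/ml IFN beta it was -0.54, 0.22 and 0.87.

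Samhd1, a phosphohydrolase that breaks down deoxynucleotides, lies on chromosome 2 (157097534 to 157135096). Its levels were 3.56, 3.42 and 4.14 in untreated cells, 3.66, 3.68 and 4.41 with 10 IU/ml IFN epsilon, 4.42, 4.59 and 4.91 with 100 IU/ml, and 5.04, 4.98 and 5.24 with 1000 IU/ml. IFN beta gave 3.58 and 3.46 at 10 IU/ml, 3.68 and 3.59 at 100 IU/ml, and 4.42, 4.50 and 5.77 at 1000 IU/ml. The IFN epsilon samples at 100 and 1000 IU/ml lay above all untreated samples, while those at 10 IU/ml overlapped them, as did the IFN beta samples at 10 and 100 IU/ml. Samhd1 rose by 1.37 ± 0.31 at 1000 IU/ml IFN epsilon (adjusted p = 0.0297). It differed by 0.93 ± 0.31 at 100 IU/ml IFN epsilon (adjusted p = 0.531, or 0.0134 with the date as a block) and by 1.19 ± 0.31 at 1000 IU/ml IFN beta (adjusted p = 0.0992, or 0.00154 with the block). The call at 1000 IU/ml IFN epsilon was lost without any 1 of the 3 samples of that group or without the untreated sample of date 1 or date 2, with adjusted p values up to 0.158. At 1000 IU/ml IFN beta the gene was called when the date 1 sample of that group was left out (adjusted p = 0.0393).

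Apobec3, a cytidine deaminase that acts on retroviral DNA, lies on chromosome 15 (79892058 to 79918218). Its levels were 1.68, 1.55 and 1.33 in untreated cells, 1.62, 1.53 and 1.52 with 10 IU/ml IFN epsilon, 1.99, 2.35 and 2.49 with 100 IU/ml, and 2.56, 2.45 and 2.58 with 1000 IU/ml. IFN beta gave 1.50 and 1.36 at 10 IU/ml, 1.55 and 1.65 at 100 IU/ml, and 2.02, 2.21 and 3.05 at 1000 IU/ml. At 10 IU/ml of either interferon and at 100 IU/ml IFN beta the samples overlapped the untreated ones, and the highest sample of all was date 3 of 1000 IU/ml IFN beta. Apobec3 rose by 1.01 ± 0.21 at 1000 IU/ml IFN epsilon (adjusted p = 0.0149) and by 0.91 ± 0.21 at 1000 IU/ml IFN beta (adjusted p = 0.0434). The IFN epsilon call was lost without the date 1 or date 3 sample of that group or the untreated sample of date 2 or date 3 (adjusted p up to 0.0926). The IFN beta call was kept only without the date 1 sample of 100 IU/ml IFN epsilon or of 1000 IU/ml IFN beta, and was lost without any of the other 17 samples (adjusted p up to 0.237). At 100 IU/ml IFN epsilon the difference was 0.76 ± 0.21 (adjusted p = 0.19), and it was called when the date 3 sample of 1000 IU/ml IFN beta was left out (adjusted p = 0.00635).

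Zc3hav1 encodes ZAP, a zinc finger protein of the PARP family that binds CpG-rich viral RNA, and lies on chromosome 6 (38305286 to 38355352). Its levels were -0.56, -0.51 and -0.06 in untreated cells, 0.16, 0.50 and 1.20 with 10 IU/ml IFN epsilon, 0.77, 1.34 and 1.55 with 100 IU/ml, and 1.51, 1.88 and 1.87 with 1000 IU/ml. The IFN beta samples had -0.38 and -0.16 at 10 IU/ml, 0.40 and 0.31 at 100 IU/ml, and 0.92, 1.49 and 2.21 at 1000 IU/ml. All samples but those of 10 IU/ml IFN beta lay above all untreated samples. Zc3hav1 rose by 2.13 ± 0.32 at 1000 IU/ml IFN epsilon (adjusted p = 0.000937), by 1.60 ± 0.32 at 100 IU/ml IFN epsilon (adjusted p = 0.0193) and by 1.92 ± 0.32 at 1000 IU/ml IFN beta (adjusted p = 0.00319). At 10 IU/ml IFN epsilon the difference was 1.00 ± 0.32 (adjusted p = 1, or 0.019 with the date as a block), and within dates it was 0.72 to 1.26. The call at 100 IU/ml was lost without the date 2 or date 3 sample of that group or the untreated sample of date 1 or date 2 (adjusted p up to 0.134).

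Adar encodes ADAR1, which converts adenosine to inosine in double-stranded RNA, and lies on chromosome 3 (89714469 to 89753455). Its levels were 0.17, 0.25 and 0.66 in untreated cells, 0.85, 0.98 and 1.41 with 10 IU/ml IFN epsilon, 0.98, 1.57 and 1.47 with 100 IU/ml, and 1.50, 1.80 and 1.98 with 1000 IU/ml. The IFN beta samples had 0.30 and 0.42 at 10 IU/ml, 0.92 and 0.98 at 100 IU/ml, and 1.22, 1.70 and 1.89 at 1000 IU/ml. Every sample but those of 10 IU/ml IFN beta lay above all untreated samples. Adar rose by 1.40 ± 0.22 at 1000 IU/ml IFN epsilon (adjusted p = 0.00134), by 0.98 ± 0.22 at 100 IU/ml IFN epsilon (adjusted p = 0.0437) and by 1.24 ± 0.22 at 1000 IU/ml IFN beta (adjusted p = 0.00508). With the date as a block Adar was also called at 10 IU/ml IFN epsilon, at 0.72 ± 0.11 (adjusted p = 0.00682), and at 100 IU/ml IFN beta, at 0.71 ± 0.12 (adjusted p = 0.0305), and without the block these differences were 0.72 ± 0.22 (adjusted p = 0.941) and 0.59 ± 0.24 (adjusted p = 1). The call at 100 IU/ml IFN epsilon was lost without any 1 of 13 of the 19 samples (adjusted p up to 0.275), and kept only without the date 1 sample of 100 or 1000 IU/ml IFN epsilon or of 1000 IU/ml IFN beta, or the date 3 sample of untreated cells, of 10 IU/ml IFN epsilon or of 1000 IU/ml IFN beta.

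Bst2, whose product tetherin bridges the viral and the cell membrane, lies on chromosome 8 (71534255 to 71537472). Its levels were 3.98, 3.17 and 3.86 in untreated cells, 4.79, 4.25 and 4.90 with 10 IU/ml IFN epsilon, 5.57, 5.19 and 5.66 with 100 IU/ml, and 5.79, 5.58 and 5.56 with 1000 IU/ml. With IFN beta they were 4.17 and 3.54 at 10 IU/ml, 4.66 and 3.92 at 100 IU/ml, and 5.49, 4.93 and 5.93 at 1000 IU/ml. The IFN epsilon samples lay above all untreated samples at each dose, whereas the IFN beta samples at 10 and 100 IU/ml overlapped them. Bst2 rose by 1.98 ± 0.30 at 1000 IU/ml IFN epsilon (adjusted p = 0.00105), by 1.80 ± 0.30 at 100 IU/ml IFN epsilon (adjusted p = 0.00403) and by 1.78 ± 0.30 at 1000 IU/ml IFN beta (adjusted p = 0.00346). At 10 IU/ml IFN epsilon it differed by 0.98 ± 0.30 (adjusted p = 0.955, or 0.00823 with the date as a block), and within dates by 0.81 to 1.07. The calls of Bst2 and Ifitm3 at 100 and 1000 IU/ml IFN epsilon and 1000 IU/ml IFN beta, and those of Zc3hav1 and Adar at 1000 IU/ml of either interferon, were kept without any 1 of the 19 samples.

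Because 6 of the members rose together, the promoters of all 8 genes were searched for the ISRE core. It was spelled GAAA, then NN (any 2 bases), then GAAA and read on both strands. The search covered the 250 bases before and 50 bases after each start for which a RefSeq promoter window (GRCm38.p6) was at hand. For Ifitm1, Ifitm2, Apobec3, Zc3hav1 and Adar these windows do not reach the outermost annotated 5′ end of the gene, which was not searched. The core was present in 4 of the 8 genes: Bst2, Ifitm3, Apobec3 and Ifitm2, which was not measured. Among all windows and genes it was in 3.44% of 32851 windows and 3.99% of 27025 genes. Bst2 had 2 overlapping matches 130 to 115 bases before its start, Ifitm3 had 2 separate matches 3 to 29 bases after its start, Ifitm2 had 1 match 46 to 37 bases before its start, and Apobec3 had 1 match on the other strand 140 to 131 bases before the first of its 2 starts. These letters are not in the windows of Ifitm1, Samhd1, Zc3hav1 or Adar (3 starts). The stretches with a match are shown 5′ to 3′ on the gene's strand, so that the members can be compared, with the matches in capitals. They lie at chr8:71537557-71537632 (minus strand) for Bst2, chr7:141010715-141010772 (minus strand) for Ifitm3, chr7:140955968-140956037 (minus strand) for Ifitm2 and chr15:79892238-79892307 (plus strand) for Apobec3.
Bst2: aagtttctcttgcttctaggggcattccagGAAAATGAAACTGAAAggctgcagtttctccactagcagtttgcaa
Ifitm3: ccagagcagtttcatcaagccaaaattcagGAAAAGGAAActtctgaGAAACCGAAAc
Ifitm2: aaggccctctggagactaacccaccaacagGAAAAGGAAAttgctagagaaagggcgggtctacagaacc
Apobec3: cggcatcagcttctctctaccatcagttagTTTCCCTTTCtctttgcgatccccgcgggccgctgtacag

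The second element searched was the GAS core that STAT dimers bind, spelled TTCNNNGAA, which reads the same on both strands. It was in the windows of 4 of the 8 genes (Bst2, Ifitm3, Samhd1 and the last of the 3 starts of Adar), and in 8.30% of all windows and 9.55% of all genes. In Bst2 and Ifitm3 it overlapped an ISRE match. A match is a run of letters and was not tested for binding.

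IFN epsilon was set against IFN beta at equal dose to ask whether the 2 interferons differed in potency on these genes. At 10 and 100 IU/ml the measured members other than Ifitm1 had higher mean levels with IFN epsilon, and at 1000 IU/ml all differences were small. Ifitm1 differed by -0.56 at 10 IU/ml and -0.35 at 100 IU/ml, where only IFN epsilon holds date 3, its lowest date. With the date as a block these differences were 0.02 and 0.23. Without a block limma called 0 of the 7 at each dose, against 0.097% of all genes called higher at 10 IU/ml, 0.0901% at 100 IU/ml and 0% at 1000 IU/ml. At an unadjusted p under 0.05 there were 4 members at 10 IU/ml, 5 at 100 IU/ml and 0 at 1000 IU/ml, where 0.95%, 2.91% and 1.33% of all genes had such a p. Bst2 at 100 IU/ml had a difference of 1.18 ± 0.33 (adjusted p = 0.459), and with the date as a block it was higher with IFN epsilon by 1.08 ± 0.17 (adjusted p = 0.0211, 0.367% of all genes called higher). Within dates it was 0.91 and 1.26 on dates 1 and 2, the 2 dates that have both interferons at this dose.

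The other differences at 100 IU/ml, without the block, were 1.01 for Samhd1, 0.86 for Zc3hav1, 0.81 for Ifitm3, 0.68 for Apobec3 and 0.39 for Adar. At 10 IU/ml they were 0.89 for Zc3hav1, 0.79 for Bst2, 0.72 for Adar, 0.67 for Ifitm3, 0.40 for Samhd1 and 0.12 for Apobec3, and 0 members were called with the block either. These means set 3 dates of IFN epsilon against 2 of IFN beta, and with the block the differences at 10 IU/ml were 0.69 for Zc3hav1 and Bst2, 0.59 for Adar, 0.60 for Ifitm3, 0.17 for Samhd1 and 0.06 for Apobec3. At 100 IU/ml they were 0.79 for Samhd1, 0.66 for Zc3hav1, 0.74 for Ifitm3, 0.61 for Apobec3 and 0.26 for Adar with the block. Apart from Ifitm1, each of these genes was higher with IFN epsilon on dates 1 and 2 at both doses, from 0.06 (Adar, 100 IU/ml, date 1) to 1.26 (Bst2, 100 IU/ml, date 2).

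At 1000 IU/ml the differences lay between 0.10 for Apobec3 and 0.21 for Zc3hav1. The 95% interval of the difference was -0.44 to 0.83 for Bst2, -0.40 to 0.62 for Ifitm3 and -0.46 to 0.89 for Zc3hav1, so differences within these bounds could not be told from 0. The dates did not run the same way. Bst2 was higher with IFN epsilon by 0.30 on date 1 and 0.65 on date 2, and differed by -0.37 on date 3. Samhd1 showed 0.62, 0.47 and -0.54 on the same dates, and Ifitm3, Apobec3 and Zc3hav1 likewise had positive values on dates 1 and 2 and negative ones on date 3. Adar was higher with IFN epsilon on all 3 dates, by 0.28, 0.10 and 0.08. Scaled to each array's median in place of its 75th percentile, all 7 differences turned negative, from -0.13 for Apobec3 to -0.02 for Zc3hav1, while the median of all genes moved to -0.25. Each scaling subtracts a single value per array, so values relative to the median of all genes are the same in both by construction. They were 0.23 for Zc3hav1 and 0.11 for Apobec3.

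**Figure D3:**
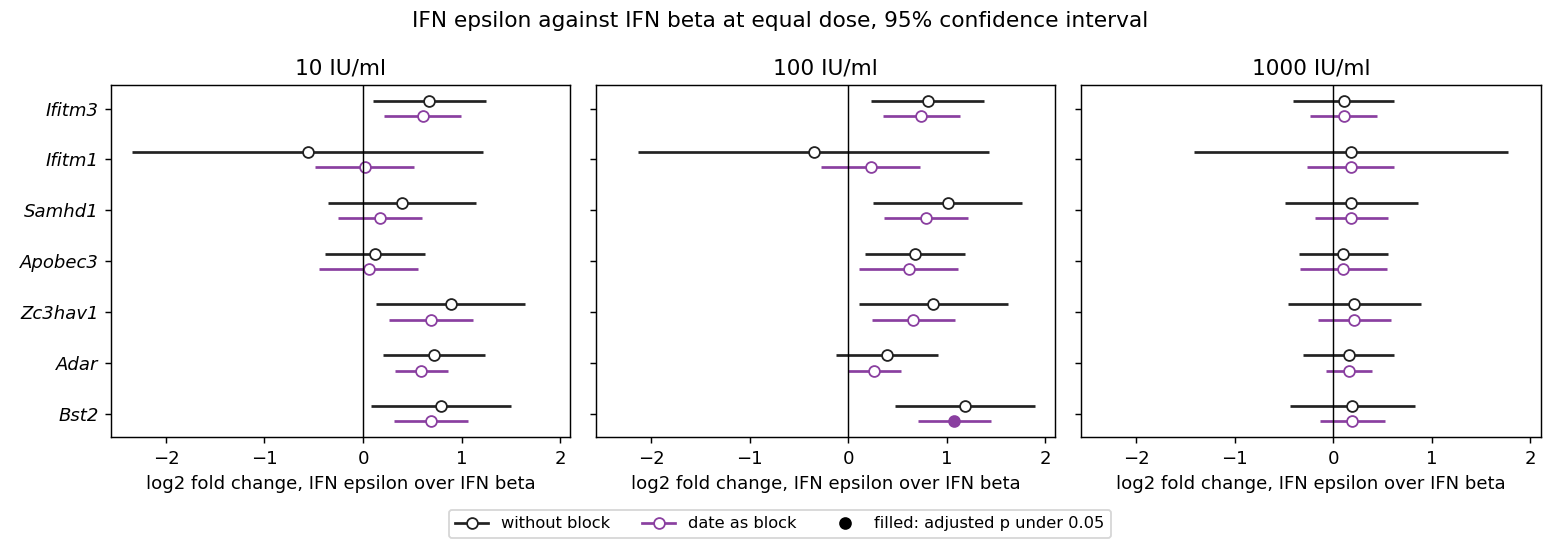
Log2 fold change of IFN epsilon over IFN beta at each dose with its 95% confidence interval, without a block and with the date as a block. The filled point is Bst2 at 100 IU/ml with the block (1.08), and at 1000 IU/ml all intervals include 0.

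The sample of 1000 IU/ml IFN beta from date 3 was the highest of all 19 samples for Ifitm3 (6.22), Samhd1 (5.77), Apobec3 (3.05), Zc3hav1 (2.21) and Bst2 (5.93). For Adar it was 1.89, below the 1.98 of 1000 IU/ml IFN epsilon on the same date. Without date 3, IFN beta at 1000 IU/ml over untreated cells was 0.50 for Apobec3 against 0.91 with it, and 1.63 for Bst2 against 1.78, and neither was called. Samhd1, at 0.97 without date 3, was called there. At 100 IU/ml IFN epsilon the calls of Adar and Bst2 were lost without date 3 and Samhd1 was called. The fit without date 3 holds fewer samples, and the share of all genes it called in these comparisons is not given.

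**Figure D4:**
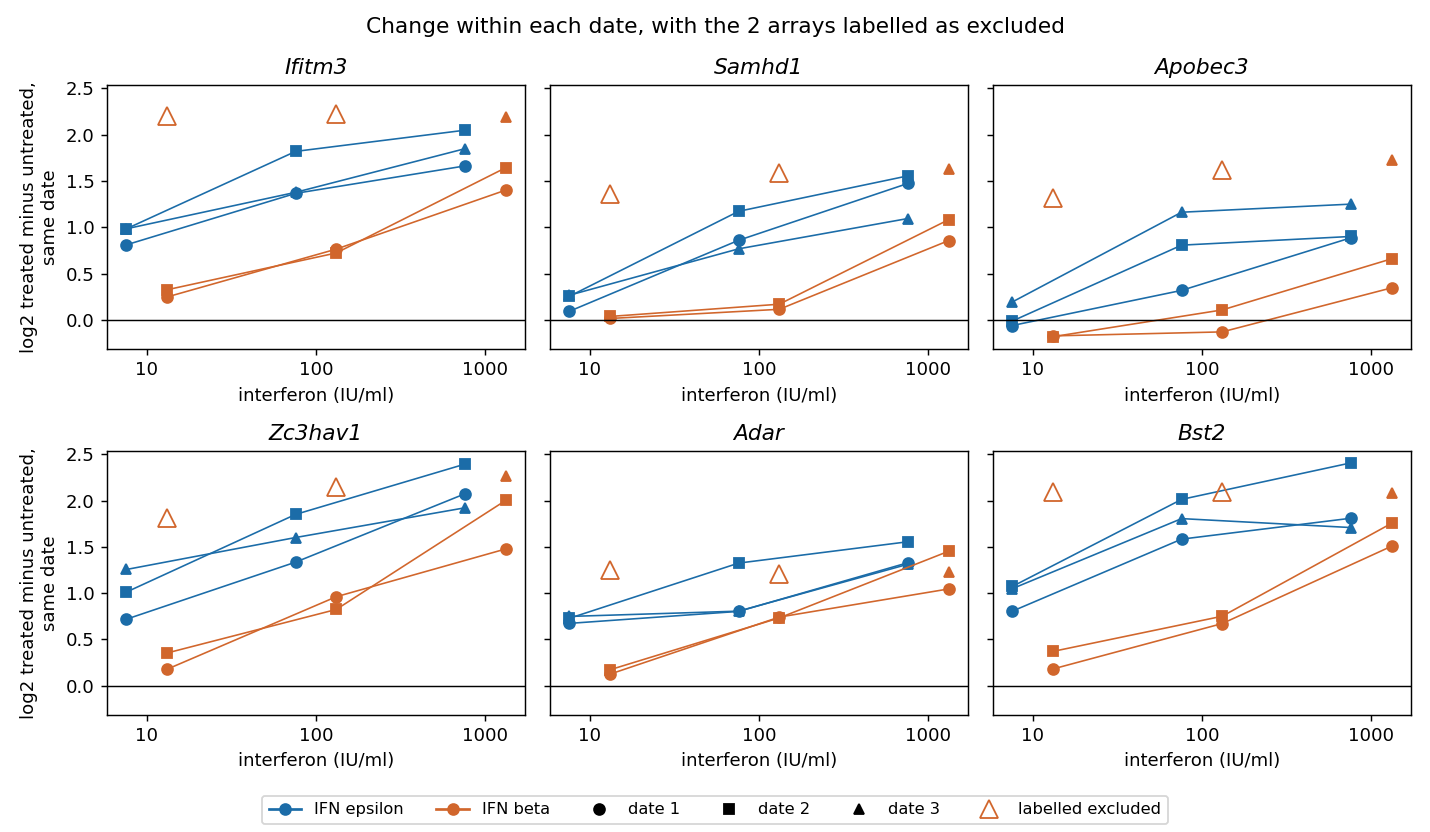
Log2 difference between treated and untreated cells of the same date for the 6 genes well above background on all arrays, by dose in IU/ml, with lines joining doses of 1 date. Open triangles are the 2 arrays labelled as excluded, which enter no test, and in all 6 panels they lie above the kept IFN beta samples of their dose. Points of the interferons are shifted sideways.

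The dose steps were asked of each interferon on its own. From 10 to 100 IU/ml IFN epsilon the measured members gained 0.16 (Ifitm1) to 0.83 (Bst2), and from 100 to 1000 IU/ml 0.17 (Bst2) to 0.53 (Zc3hav1). With IFN beta, the step from 10 to 100 IU/ml was -0.05 (Ifitm1) to 0.63 (Zc3hav1) and the step from 100 to 1000 IU/ml was -0.35 (Ifitm1) to 1.26 (Samhd1). Only the 1000 IU/ml group of IFN beta holds date 3, and with the date as a block the upper step was 0.23 for Ifitm1 and 1.04 for Samhd1. Without the block limma called 0 members at each step, although 4 had an unadjusted p under 0.05 between 10 and 100 IU/ml IFN epsilon, 0 between 100 and 1000 IU/ml IFN epsilon, 1 between 10 and 100 IU/ml IFN beta and 6 between 100 and 1000 IU/ml IFN beta. Such a p was found for 2.72%, 2.99%, 0.922% and 4.54% of all genes, in the same order. Of all genes 0.0693% were called higher at the lower step of IFN epsilon, 0.499% at the upper step of IFN beta and 0% at the other steps. With the date as a block Bst2 was called between 10 and 100 IU/ml IFN epsilon (0.83 ± 0.15, adjusted p = 0.0402, 0.367% of all genes). Between 100 and 1000 IU/ml IFN beta the block called 4 members (0.88% of all genes): Bst2 at 1.06 ± 0.17 (adjusted p = 0.0119), Ifitm3 at 0.97 ± 0.18 (adjusted p = 0.0239), Samhd1 at 1.04 ± 0.20 (adjusted p = 0.0273) and Zc3hav1 at 0.98 ± 0.19 (adjusted p = 0.0371). The test of whether the change between 10 and 1000 IU/ml differed between the interferons called 0 members and 0% of all genes in either fit. Without the block 0 members had an unadjusted p under 0.05, as had 131 of all 14428 genes. With the block Adar had -0.44 ± 0.16 (limma unadjusted p = 0.0202), and the other measured members had an unadjusted p of 0.0502 or more. The share of all genes with such a p in the fit with the block is not given.

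By mean level, IFN epsilon at 1000 IU/ml came first for Ifitm3, Samhd1, Apobec3, Zc3hav1, Adar and Bst2. IFN beta at 1000 IU/ml was second for all of these but Bst2, where IFN epsilon at 100 IU/ml was second, 0.02 above it. Neighbours among the first 3 groups in this order overlapped in their samples for all 6 genes. For Apobec3 the 4 lowest groups, which were IFN beta at 100 IU/ml, IFN epsilon at 10 IU/ml, untreated cells and IFN beta at 10 IU/ml, had means within 1.43 and 1.60, and each of the 3 treated groups overlapped the untreated samples. For Samhd1 the untreated cells (3.71 ± 0.38, SD, n = 3) ranked above IFN beta at 100 IU/ml (3.63 ± 0.06, n = 2) and at 10 IU/ml (3.52 ± 0.08, n = 2). On dates 1 and 2, however, Samhd1 was 0.11 and 0.17 higher than untreated cells at 100 IU/ml IFN beta, and the untreated sample of date 3, at 4.14, had no IFN beta partner at these doses.

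Adar, Samhd1 and Apobec3 had several probes, which gave unequal fold changes for Adar and Samhd1. The dimmer Adar probe, A_66_P112920, had -0.72, -1.06 and -0.24 in untreated cells, 0.61, 0.62 and 1.24 with 10 IU/ml IFN epsilon, 1.07, 1.57 and 1.84 with 100 IU/ml, and 1.78, 1.86 and 1.70 with 1000 IU/ml, so that all IFN epsilon samples lay above the untreated ones. Its IFN beta samples at 10 IU/ml, at -0.30 and -0.42, lay within the untreated range. In a fit over 31465 probes it rose by 1.50 ± 0.25 at 10 IU/ml IFN epsilon (adjusted p = 0.024, 0.191% of all probes called in either direction). The brighter Adar probe, A_52_P183181, stood at 0.72 ± 0.22 there (adjusted p = 1). At 1000 IU/ml the dimmer probe rose by 2.46 with IFN epsilon and 2.40 with IFN beta, and the brighter probe by 1.40 and 1.24. Both probes carry the same RefSeq accession, and where in the transcript each one lies was not examined.

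The 2 dimmer Samhd1 probes rose by 1.78 and 1.80 at 1000 IU/ml IFN epsilon (1.37 for the brightest) and by 1.49 and 1.53 at 1000 IU/ml IFN beta (1.19 for the brightest). They were called at 100 IU/ml IFN epsilon too, at 1.33 and 1.25 (adjusted p = 0.0188 and 0.0172), where 0.906% of all probes were called. The 3 probes of Apobec3 lay between 1.01 and 1.15 at 1000 IU/ml IFN epsilon, where all 3 were called, and between 0.88 and 1.06 at 1000 IU/ml IFN beta, where 0 were. The differences between probes were not tested.

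**Figure D5:**
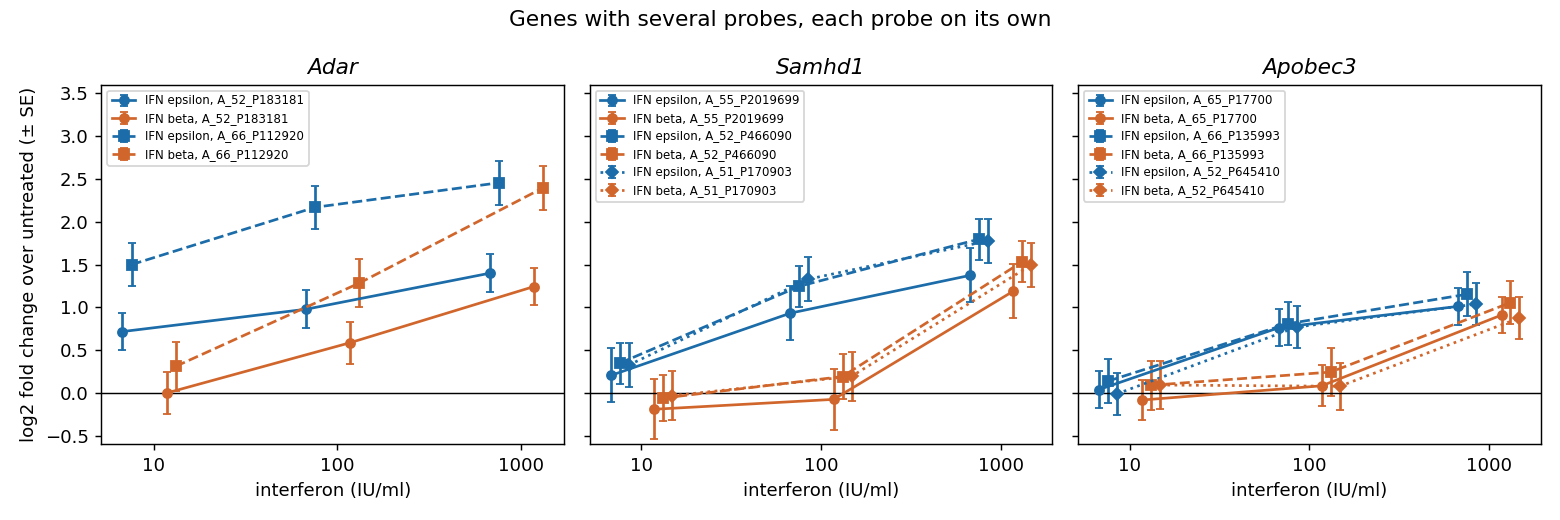
Log2 fold change over untreated cells (± SE) by dose in IU/ml for each probe of Adar, Samhd1 and Apobec3. The dimmer Adar probe reaches 2.46 at 1000 IU/ml IFN epsilon and the brighter one 1.40, while the 3 Apobec3 probes lie within 1.01 and 1.15.

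Across the 19 samples, Ifitm3 and Bst2 had a Pearson correlation of 0.983 and Zc3hav1 and Adar also one of 0.983, while Apobec3 and Adar had 0.821, the lowest among the 6 genes other than Ifitm1. Ifitm1 had between -0.36 and -0.09 with the other members. These samples share dates and treatments, so the values describe a common pattern only. The genes outside the set most like Ifitm3 were Pnpt1 (0.982), Lgals3bp (0.980) and Ifitm7 (0.971), and the same 3 genes led for Bst2, with Ifitm7 at 0.984. Zc3hav1 was closest to Parp10 (0.994), Dtx3l (0.990) and Tgtp2 (0.989), and Adar to Irgm1 (0.987), Irgm2 (0.979) and Trim25 (0.974). Samhd1 was closest to Psmb10 (0.984), Tmem184b (0.980) and BC051226 (0.978), and Apobec3 to Trafd1 (0.977), Il18bp (0.976) and Gm5431 (0.976). The genes closest to Ifitm1 were Dlg2 (0.963), Myo1a (0.959) and Zfp503 (0.958), which share its low values on date 3.

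Related genes were counted in whole lists at 1000 IU/ml, IFN epsilon first. These lists too were chosen with earlier results of these data known. Of all genes tested, 2.24% were called higher with IFN epsilon and 1.58% with IFN beta at this dose. Of 6 measured relatives of the Ifitm family 1 rose with each interferon: Ifitm7, by 1.35 ± 0.24 with IFN epsilon and 1.28 ± 0.24 with IFN beta, while the list's median was 0.00 and 0.15. Of 5 measured relatives of the APOBEC and ADAR enzymes 1 rose with each, Apobec1, an RNA-editing cytidine deaminase, by 3.41 ± 0.49 and 2.92 ± 0.49, with list medians of -0.27 and -0.19. Whether near-identical Ifitm transcripts share probe signal was not examined.

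Among 13 cofactors and relatives of ZAP, 5 rose with IFN epsilon (2.24% of all genes) and 5 with IFN beta (1.58%). The largest changes with IFN epsilon were those of Parp12 (2.91 ± 0.30), a CCCH zinc finger PARP like ZAP, Parp10 (2.37 ± 0.35), a mono-ADP-ribosyltransferase, and Trim25 (1.93 ± 0.25), an E3 ligase that ZAP needs for its antiviral action. Zc3hav1l, a relative of Zc3hav1 that was singled out after its value was seen, fell by 0.82 ± 0.17 with IFN epsilon (adjusted p = 0.0172) and stood at -0.62 ± 0.17 with IFN beta (adjusted p = 0.151). The median of this list was 0.29 with IFN epsilon and 0.33 with IFN beta, beside -0.05 and -0.04 over all genes.

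Of 12 genes of deoxynucleotide supply and SAMHD1 control, among them Rrm1, Rrm2 and Cdk2, limma called 0 with either interferon (list medians of -0.09 and -0.03). In either direction it called 2.31% and 1.59% of all genes. Of the 12, 0 had an unadjusted p under 0.05 with either interferon, as had 1138 and 788 of all 14428 genes tested. Of 13 genes of nucleic acid clearance and sensing, 5 rose with each interferon (list medians of 0.14 and 0.24), beside 2.24% and 1.58% of all genes. Zbp1, a sensor of Z-form nucleic acid that ADAR1 restrains, led with 5.61 ± 0.60 and 4.92 ± 0.60, ahead of Ifih1, the RNA sensor MDA5 (3.44 ± 0.34 and 3.13 ± 0.34), and Trex1, a DNA exonuclease (2.54 ± 0.46 and 2.38 ± 0.46). Of 16 other restriction factors measured, 6 rose with IFN epsilon and 5 with IFN beta (list medians of 0.77 and 0.71), led by Gbp5 (7.21 ± 0.76 and 6.09 ± 0.76), which impairs viral envelope proteins in human cells, Trim21 (3.77 ± 0.61 and 3.56 ± 0.61), an antibody receptor inside the cell, and Isg20 (2.41 ± 0.26 and 2.03 ± 0.26), an exonuclease. At 10 IU/ml of either interferon and at 100 IU/ml IFN beta, 0 genes of these 6 lists were called. Of all genes, 0.201% were called at 10 IU/ml IFN epsilon, 0% at 10 IU/ml IFN beta and 0.111% at 100 IU/ml IFN beta.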

How the data were processed

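RNA of ID8 cells was measured on 24 single-colour Agilent arrays. Per the file headers, the deposited intensity (gProcessedSignal) was background-subtracted within each array by Agilent Feature Extraction 11.0.1.1. The authors' deposited log2 values were an alternative; how they were made is not given in the sources used here, beyond limma 3.42.0 and R 3.6.1 in the submitters' processing notes.

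The measure was log2 intensity less the 75th percentile of the array. Control spots were left out, as were 79 to 280 outlier spots on an array, and 0 were saturated. Probes were named through RefSeq accessions (GRCm38.p6): 32994 of 56605 matched. A probe was kept if 2 or more samples of any group had it well above background, and the brightest stood for its gene. The 2 arrays of each untreated sample were averaged. limma 3.58.1 in R 4.3.3 (12 residual degrees of freedom) fitted 7 groups and 19 samples without a block, with Benjamini-Hochberg adjustment per comparison over 14428 genes. The R packages statmod 1.5.0 and data.table (version 1.17.8), Python 3.11.15, numpy 2.4.6, pandas 2.3.3 and matplotlib 3.10.9 were also used. The fit without a block was tested on simulated data with independent noise and no date effect, unlike the real samples. Array number limits precision: the median 95% interval reached 0.453 to either side with 3 against 3 samples.

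The series' design text puts replicates on separate dates, so the replicate number pairs samples. Deviations from group means correlated at 0.42 on average between samples of 1 date (-0.06 to 0.77, 52 pairs) and at -0.20 between dates. Technical replicates were combined before measurement, per that text.

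Alternatives were median scaling, quantile normalization, normexp background (offset 50), the deposited table, other filters and probe summaries, the date block, the slide as a random block, fits on the compared groups, all 24 arrays, and leaving out samples. Normexp used median spot signals, since mean signals were not used here. Leaving out date 3 and fitting each probe were added after seeing the data.

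The genes and lists were chosen with earlier results of these data known. Named genes were the members, the 3 genes most correlated with each, and up to 3 per related list with the largest called change at 1000 IU/ml IFN epsilon.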

Additional observations from a re-analysis of the deposited data

Results flagged for a closer look

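The 2 arrays labelled as excluded, IFN beta at 100 and at 10 IU/ml from date 3, enter no comparison. On them, 6 members lay above every untreated sample, and the share of all genes that did so is not given. Relative to the mean of the untreated samples, the array of 100 IU/ml had Zc3hav1 at 2.46, Ifitm3 at 2.29, Bst2 at 2.27, Samhd1 at 2.02, Adar at 1.51 and Apobec3 at 1.43. The array of 10 IU/ml had Bst2 at 2.28, Ifitm3 at 2.26, Zc3hav1 at 2.13, Samhd1 at 1.79, Adar at 1.55 and Apobec3 at 1.13. These are log2 differences of single arrays with no replicate. Set beside 1000 IU/ml IFN beta on date 3, Bst2 was at 5.94 and 5.95 on the arrays of 100 and 10 IU/ml and at 5.93 in that sample, and Ifitm3 at 6.25, 6.23 and 6.22. Samhd1 was at 5.73 and 5.50 on these arrays and at 5.77 in that sample, and Zc3hav1 at 2.09, 1.75 and 2.21.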

How the results depend on the processing

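Counts of called members depended on the processing. With the replicate block they were 4 at 10 IU/ml IFN epsilon, 1 at 100 IU/ml IFN beta, 1 for IFN epsilon against IFN beta at 100 IU/ml, 1 for 100 against 10 IU/ml IFN epsilon and 4 for 1000 against 100 IU/ml IFN beta, where the fit without it gave 0. The block also added Samhd1 at 100 IU/ml IFN epsilon and 1000 IU/ml IFN beta and changed no other call of a member. With median scaling they were 0 at 100 IU/ml IFN epsilon (0.755% of all genes called in either direction), 1 at 1000 IU/ml IFN epsilon (1.2%) and 2 at 1000 IU/ml IFN beta (1.0%), and the median of all genes moved to -0.43 at 1000 IU/ml IFN epsilon. Fits on the compared groups gave 2 at 100 IU/ml IFN epsilon (0.783%) and 0 at 1000 IU/ml IFN beta (0.381%), and all 24 arrays gave 0 in each of these 3 comparisons (0.492% at 1000 IU/ml IFN epsilon and 0% in the other two). Without date 3 the count was 1 for IFN epsilon against IFN beta at 100 IU/ml (0.485%), 1 for 100 against 10 IU/ml IFN epsilon (0.277%) and 1 for 1000 against 100 IU/ml IFN beta (0.561%), all Samhd1. With 1 sample left out the counts ranged from 2 to 5 at 100 IU/ml IFN epsilon, 4 to 6 at 1000 IU/ml of either interferon, and 0 to 1 for 100 against 10 IU/ml IFN epsilon and for 1000 against 100 IU/ml IFN beta. The cause was not tested, except that the smaller fits hold fewer samples. Of 1176 values of members under another setting, 67 had the other sign (26 of them Ifitm1), as did 47 of 1862 with 1 sample left out (23 of them Ifitm1), and 0 of these were called in either fit. The slide as a random block had a consensus correlation of -0.00916, and lost the calls of Adar at 100 IU/ml IFN epsilon and Apobec3 at 1000 IU/ml IFN beta. The probe of Ifitm1 was well above background on 16 of 22 arrays.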
